A study of Arabidopsis thaliana with 9 samples.

Results

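The cyp78a5,7 double mutant and the amp1-13 mutant of Arabidopsis were compared directly with each other, with no wild type array in the contrast. The comparison took the 3 arrays labelled cyp78a5,7 and the 3 labelled amp1-13, that is 6 of the 9 Affymetrix ATH1 arrays of the study and it covered 22746 probe sets, the 64 array controls not included. Each genotype was in the Col-0 background and was sampled as 3 biological replicates of whole 10-day-old seedlings. The cyp78a5,7 plants carry T-DNA insertions in both CYP78A5 and CYP78A7, brought together by crossing, and amp1-13 is a T-DNA allele described as strong, so that each defect is represented by a single line. The other 3 arrays were wild type Col-0 seedlings, which entered the normalization and the estimate of the spread and show where the wild type level lay. All seedlings, wild type included, were grown in liquid Murashige and Skoog medium with 1% sucrose and 1% DMSO in multi-well plates at 26 °C with 16 h of light. The study notes that its amp1-13 data had also served an earlier analysis of the compound hyperphyllin.

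AMP1 encodes a putative carboxypeptidase of the endoplasmic reticulum, and its loss gives an enlarged shoot meristem, a faster sequence of leaves and raised cytokinin levels. CYP78A5, also known as KLUH, and CYP78A7 are cytochrome P450 enzymes of the CYP78A family, which is known for promoting organ growth and for affecting the rate of leaf formation. Mutants in AMP1 and in the CYP78A genes share parts of their seedling appearance, so a direct contrast asks in which transcripts the seedlings differ from each other.

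In the direct contrast 490 probe sets were called higher in cyp78a5,7 than in amp1-13 and 401 were called lower. These are 2.15% and 1.76% of all probe sets tested, or 3.92% in either direction. A call required a Benjamini-Hochberg adjusted p under 0.05 from limma and a change of at least 2-fold, both on the log2(signal + 16) scale after quantile normalization. On this scale the upper end was longer on the higher side. In cyp78a5,7 101 probe sets were at least 4-fold higher and 27 at least 4-fold lower, against 27 and 0 at 8-fold. The median log2 fold change was 1.43 among those called higher and -1.24 among those called lower, while 90% of all probe sets lay between -0.68 and 0.67 around a median of -0.004. Of the called probe sets, 486 of 490 and 400 of 401 had no overlap between the 3 cyp78a5,7 and the 3 amp1-13 arrays, against 14.5% of all probe sets without overlap in the higher direction and 16.1% in the lower. The calls were made on these same arrays, so this lack of overlap follows largely from the selection and is no further support. Without amp1-13 replicate 2 the counts of calls were 290 and 263, and without cyp78a5,7 replicate 2 they were 326 and 339. With no offset they were 478 and 497. Sizes of change depend on the offset as well. Across the alternative fits the log2 fold change of FBA5, called lower, reached -3.68, and that of AT2G38240, called higher, reached 7.20.

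**Figure D1:**
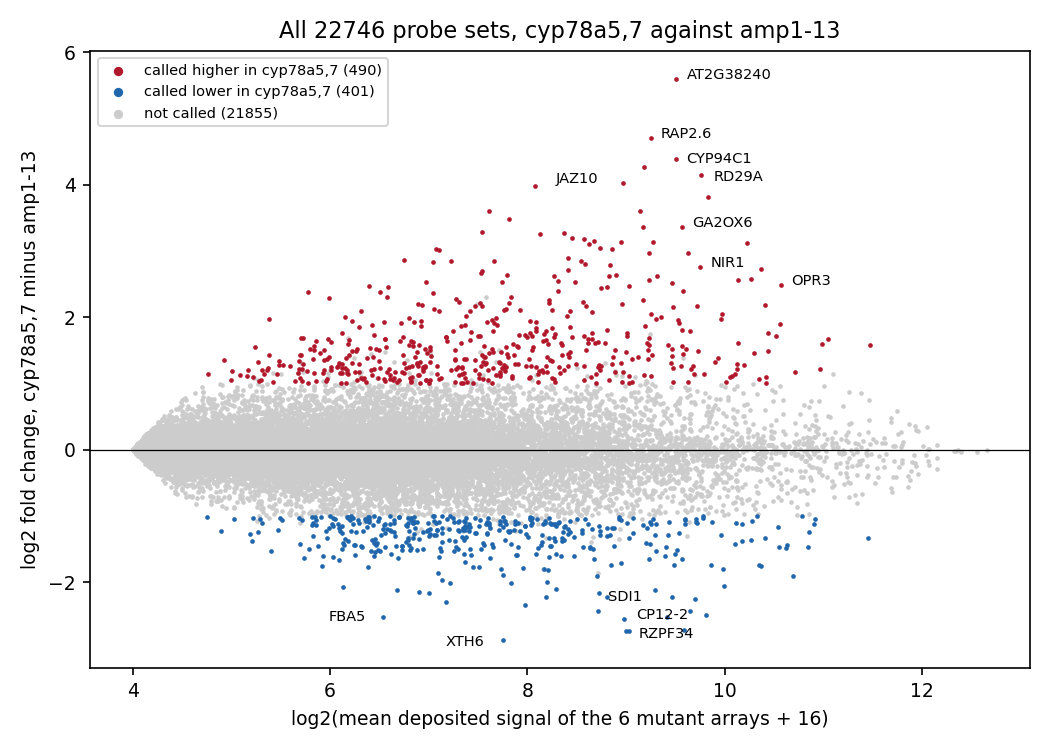
Each point is 1 of 22746 probe sets, with log2 of the mean deposited signal of the 6 mutant arrays plus 16 on the x axis and the log2 fold change, cyp78a5,7 minus amp1-13, on the y axis. With the offset of 16, the 490 probe sets called higher in cyp78a5,7 reach log2 fold changes above 5. The 401 called lower stop short of -3, and the rest were not called.

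The deposited values are MAS5 signals, which summarize the probes of a probe set on a linear scale, and values of single genes are given below as deposited for replicates 1 to 3. Between cyp78a5,7 and amp1-13 arrays the correlation over all probe sets was 0.933 to 0.97, and within a genotype it was 0.964 to 0.991. Adding 16 before taking logs makes changes of dim probe sets smaller, and 59 of the probe sets called higher and 22 of those called lower had a mean signal under 16 in the lower genotype. In whole seedlings, fewer cells of a type and less RNA per cell cannot be told apart. The platform annotation named 13513 probe sets with 1 gene, and a further 820 were named only from the study's list of genes changed on these same arrays relative to wild type. Of those named only from that list 23.3% were called higher and 7.8% lower between the mutants, 31.1% in all. Of those named by the platform 1.83% were called higher and 1.44% lower, 3.26% in all. The counts of gene list members below are therefore raised by the naming and are not independent evidence of a direction. The number of arrays limits the precision, since each genotype has 3.

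The targeted genes did not allow a check of the genotypes, and the labels are used as given. Both insertions of the double mutant are described as lowering the transcripts of their own genes. CYP78A7, the only mutated gene with a named probe set, had 21.2, 25 and 37.1 in cyp78a5,7, 12.2, 31.9 and 28.7 in amp1-13 and 11.5, 9.465 and 12.7 in wild type, so the mutants overlapped and cyp78a5,7 lay above wild type on every array, with a log2 fold change between the mutants of 0.20 ± 0.21 (adjusted p = 0.67 from limma). Where its probes lie in relation to the insertion is not given in the sources used here, so the value does not check the label, and AMP1 and CYP78A5 were not analysed here. Among 97 called genes chosen by the naming rule, some calls depend on the offset or on the arrays in the fit. With an offset of 64 the calls of ORA59, COR15B, MARD1, AFP1, XTH20, EXLA1, EXLA2, BEE3, CYP79B3, SAUR16, HAT2, LHCB4.2, PR2, ICS1, RGF9, AT5G26770, AT1G24440 and AT2G30930, which are described below, were lost. With no offset those of TAT3, BGLU28, LOX4, JAZ5, JAZ7, CLH1, XTH18, EXLA1, CYP79B3, LHCB4.2, WRKY38, PR2, RGF9 and AT2G30930 were lost. With the 6 mutant arrays alone those of BGLU28, LOX4, JAZ7, XTH18, EXLA1, CYP79B3, LHCB4.2, WRKY38, RGF9, AT1G24440 and AT2G30930 were lost.

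The largest differences included genes of the jasmonate response and of the dehydration response that were higher in cyp78a5,7 than in amp1-13. Genes for the largest changes in each direction were taken only if the mutants did not overlap. Their lack of overlap, here and below, therefore follows from the choice and adds no support. AT2G38240, a member of the jasmonate turnover list, had the largest difference, with signals of 440.2, 1176 and 2640 in cyp78a5,7 and 11.3, 7.7 and 6.28 in amp1-13. All 3 cyp78a5,7 arrays lay far above all amp1-13 arrays, and the log2 fold change was 5.60 ± 0.73 (SE, adjusted p = 0.003 from limma), which depends on the offset because the amp1-13 mean was under 16. RAP2.6, an ERF transcription factor of stress responses, had 373, 995 and 2117 in cyp78a5,7 and 34.2, 21.6 and 12 in amp1-13, again without overlap, for a log2 fold change of 4.71 ± 0.61 (adjusted p = 0.003 from limma). GA2OX6, an enzyme that inactivates gibberellins, had 1010, 1497 and 1557 in cyp78a5,7 and 213, 85.5 and 97.3 in amp1-13 and a log2 fold change of 3.36 ± 0.36 (adjusted p = 0.0017 from limma). Its wild type arrays had 80.9, 44 and 89, so that cyp78a5,7 lay far above both other genotypes. Of 5 named gibberellin genes GA2OX6 was the only one called, and the receptor genes GID1A and GID1B had log2 fold changes of -0.73 and 0.51 that did not pass.

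Further genes among the 15 largest rises, which were also chosen without overlap between the mutants, carry no gene symbol. AT5G56980 had 431, 604.5 and 430 in cyp78a5,7 and 55.7, 29.2 and 31.3 in amp1-13, a tight separation with a log2 fold change of 3.26 ± 0.19 (adjusted p = 0.00035 from limma). AT2G34930 had 320, 498 and 366 in cyp78a5,7 and 45.5, 10.9 and 14.35 in amp1-13, and AT1G22810 had 215, 470.3 and 346 in cyp78a5,7 and 26.7, 6.42 and 8.99 in amp1-13. For both, amp1-13 replicate 1 was the highest of its genotype and still lay well under every cyp78a5,7 array. AT5G19110 had a log2 fold change of 3.27. AT4G22610, at 3.36, lost its call without cyp78a5,7 replicate 2, amp1-13 replicate 2 or amp1-13 replicate 3, with adjusted p = 0.0605, 0.0661 and 0.0596 from limma. AT1G22810 had a mean under 16 in amp1-13, so the size of its change depends on the offset.

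**Figure D2:**
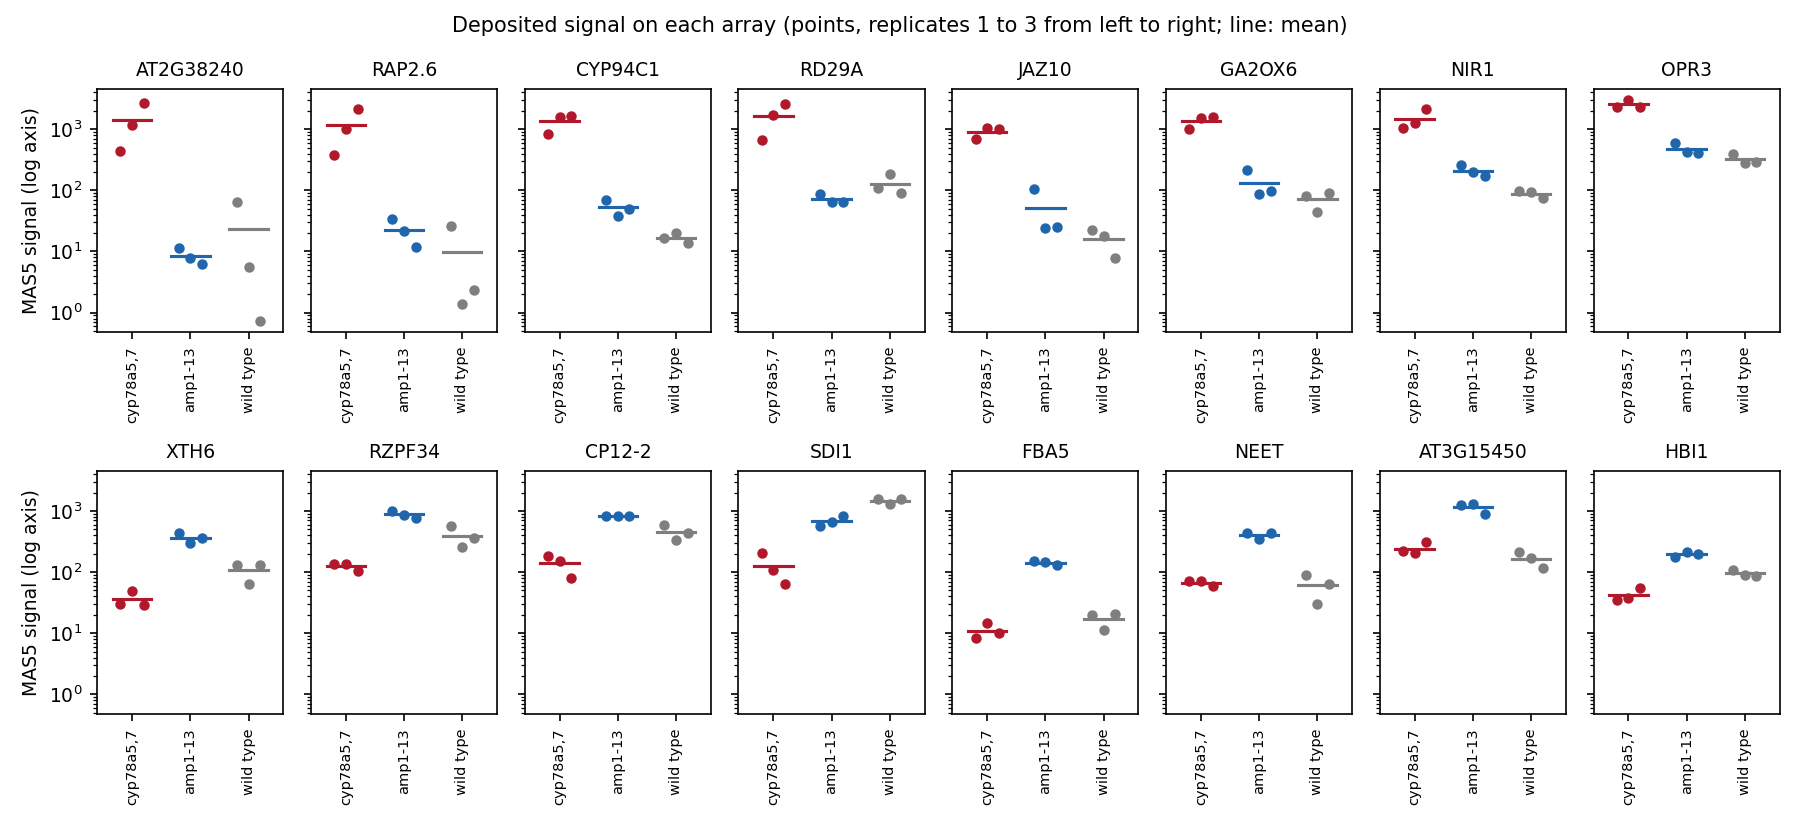
The deposited MAS5 signal of 16 genes is plotted for each of the 9 arrays on a log axis, with replicates 1 to 3 as points from left to right and the mean as a line. In the upper row the 3 cyp78a5,7 arrays lie above all amp1-13 arrays, and in the lower row they lie below all of them. Genes for the largest changes were taken only if the mutants did not overlap, so for such genes this separation follows from the choice.

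Jasmonates are oxylipin hormones made from chloroplast fatty acids through lipoxygenases, allene oxide synthase and cyclase and the peroxisomal reductase OPR3. The active conjugate with isoleucine removes the JAZ repressors from MYC transcription factors, and it is inactivated by CYP94 oxidation and by amidohydrolases. Genes of synthesis, turnover and repression were called higher in cyp78a5,7 than in amp1-13. Beside the counts of the jasmonate lists, 2.15% of all probe sets were called higher. Among those named only from the study's list the share was 23.3%. In the synthesis list 7 of 8 named members were called higher and 0 lower, and all 8 had positive changes with a median log2 fold change of 1.99. OPR3 had 2278, 2998 and 2340 in cyp78a5,7 and 589, 421 and 401 in amp1-13, with a log2 fold change of 2.49 ± 0.19 (adjusted p = 0.00092 from limma). The lipoxygenase LOX3 had 676, 666.5 and 389 in cyp78a5,7 and 129, 34.5 and 52.9 in amp1-13, and AOC3, an allene oxide cyclase, had 927, 1499 and 1342 in cyp78a5,7 and 379, 178 and 179 in amp1-13. In both genes amp1-13 replicate 1 was more than 2 times the other amp1-13 arrays, and the groups still did not overlap. Their log2 fold changes were 2.89 and 2.39.

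AOS, the allene oxide synthase, had 959, 1140 and 1630 in cyp78a5,7 and 438, 367 and 470.3 in amp1-13, and the activating ligase OPCL1 had 967.5, 955 and 711 in cyp78a5,7 and 384, 261 and 226 in amp1-13, with log2 fold changes of 1.49 and 1.59. LOX6 rose by 1.35 on the log2 scale, and ACX1, an acyl-CoA oxidase of the last steps, had a log2 fold change of 0.85 that stayed under 2-fold. LOX4, at 2.44, lost its call without cyp78a5,7 replicate 2, amp1-13 replicate 2 or amp1-13 replicate 3, with adjusted p = 0.0776, 0.0867 and 0.0777 from limma. OPCL1 was the only member of this list that the platform named.

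The turnover list showed the largest changes of all lists described here, with 7 of 8 named members called higher, 0 lower and a median log2 fold change of 3.71. CYP94B1 and CYP94B3 hydroxylate the jasmonoyl-isoleucine hormone, and CYP94C1 oxidizes it further. CYP94C1 had 842.5, 1592 and 1673 in cyp78a5,7 and 70.7, 38.5 and 49.1 in amp1-13, with a log2 fold change of 4.39 ± 0.27 (adjusted p = 0.00035 from limma). CYP94B3 had 829.5, 1133 and 1069 in cyp78a5,7 and 156, 41.6 and 51.5 in amp1-13, and CYP94B1 had 164, 493 and 835 in cyp78a5,7 and 22.7, 7.45 and 6.62 in amp1-13. None of the 3 overlapped between the genotypes, and replicate 1 was the lowest of cyp78a5,7 in each. ILL6, an amidohydrolase that cleaves the conjugate, had 476, 921 and 1034 in cyp78a5,7 and 93.7, 78.2 and 81.1 in amp1-13, a log2 fold change of 3.02 ± 0.26. AT5G05600 had 897, 1635 and 2533 in cyp78a5,7 and 119, 105 and 89 in amp1-13, and JRG21, whose name stands for a jasmonate-regulated gene, had 43.1, 153 and 498 in cyp78a5,7 and 3.54, 12.7 and 0.497 in amp1-13. AT3G11180 had signals under 16 on all 6 arrays and a log2 fold change of 0.35 that did not pass. Of the 4 members that the platform named, 3 were called.

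Among the signalling genes 9 of 13 named members were called higher and 0 lower, with a median of 1.89. The called members were 8 JAZ repressor genes and JAM1, a bHLH factor that opposes MYC2. JAZ10 had 694, 1051 and 1005 in cyp78a5,7 and 104, 24.1 and 25.6 in amp1-13, a log2 fold change of 4.03 ± 0.42 (adjusted p = 0.0016 from limma). JAZ9 had 495, 789 and 624 in cyp78a5,7 and 95.5, 70.3 and 62.5 in amp1-13, and JAZ1 had 2131, 2503 and 2311 in cyp78a5,7 and 954, 568 and 492 in amp1-13. The highest amp1-13 array was replicate 1 in each of the 3 genes, below the lowest cyp78a5,7 array. JAZ2 and JAZ6 had log2 fold changes of 2.17 and 1.79, and JAZ8 was also called. JAZ7 was uneven within both mutants, with 772, 966 and 281 in cyp78a5,7 and 205, 25.7 and 28.3 in amp1-13, and it lost its call without cyp78a5,7 replicate 2, amp1-13 replicate 2 or amp1-13 replicate 3 (adjusted p = 0.0789, 0.0863 and 0.0781 from limma). JAZ5, at 2.79, lost it without the same 3 arrays, with adjusted p = 0.0528, 0.0597 and 0.0515. Against wild type 11 of the 13 signalling members were called in cyp78a5,7 and 4 in amp1-13, all higher. In the synthesis list these counts were 8 and 1, and in the turnover list 7 and 0. Of all probe sets 7.02% and 2.6% were called. JAZ1 had 149, 144 and 92.4 in wild type, so amp1-13 also lay above it, at a log2 fold change of 2.24.

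The MYC transcription factors themselves differed less. MYC2 had 644, 535 and 324 in cyp78a5,7 and 339, 226 and 178 in amp1-13, which overlapped, and its log2 fold change of 0.96 ± 0.30 did not pass (adjusted p = 0.079 from limma). MYC3 and MYC4 had log2 fold changes of 0.17 and -0.10, and JAZ3 had 0.77. MYC3 and MYC4 were the only members of the signalling list named by the platform, so every called member of it was named through the study's list.

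Jasmonate output genes were mixed, with 3 of 8 named members called higher, 1 lower and a median of 0.37. TAT3, a tyrosine aminotransferase of the wound response, had 156, 241.5 and 576 in cyp78a5,7 and 22.2, 15 and 8.955 in amp1-13, with a log2 fold change of 3.29 ± 0.41 (adjusted p = 0.0027 from limma, and 0.0536 with no offset, which ends the call). Across the alternative fits the log2 fold change of TAT3 ran from 2.15 to 4.33. TPS04, a terpene synthase, had 33.1, 80.3 and 119 in cyp78a5,7 and 0.46, 0.427 and 0.295 in amp1-13, which places amp1-13 at the bottom of the scale. CLH1, a chlorophyllase, had a log2 fold change of 1.27 and lost its call without cyp78a5,7 replicate 2 or any of the amp1-13 arrays, with adjusted p from 0.0536 to 0.0754 from limma. ORA59, the ERF factor of the branch shared with ethylene, went the other way with 32.8, 23.2 and 19.98 in cyp78a5,7 and 68.3, 70.7 and 94.3 in amp1-13, a log2 fold change of -1.13 ± 0.21. Without amp1-13 replicate 3 its adjusted p was 0.052. The defensin PDF1.2A, a target of that branch, had signals under 7 on all 6 mutant arrays, and CORI3 had 979, 875 and 1300 in cyp78a5,7 and 455, 923 and 815 in amp1-13, which overlapped.

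Nitrate genes formed the next group. Nitrate is taken up by NRT2.1 with its partner NRT3.1, reduced by the nitrate reductases NIA1 and NIA2 and the nitrite reductase NIR1, and these enzymes draw on reductant and on siroheme. Of 15 named members 9 were called higher in cyp78a5,7 and 0 lower, all 15 had positive changes, and the median log2 fold change was 1.77. Between the mutants 2.15% of all probe sets and 23.3% of those named only from the study's list were called higher. NIR1 had 1042, 1242 and 2166 in cyp78a5,7 and 260, 197 and 170.2 in amp1-13, a log2 fold change of 2.75 ± 0.27 (adjusted p = 0.0015 from limma). NIA1 had 1159, 1360 and 2267 in cyp78a5,7 and 269.9, 419 and 456 in amp1-13, a log2 fold change of 2.06. In both, cyp78a5,7 replicate 3 was the highest array and the groups did not overlap. Both were also called higher in amp1-13 than in wild type, at log2 fold changes of 1.06 for NIR1 and 1.61 for NIA1. Of the 15 members 13 were called against wild type in cyp78a5,7 and 5 in amp1-13, where 7.02% and 2.6% of all probe sets were called. NIA2 had 2159, 2405 and 3452 in cyp78a5,7 and 1379, 1411 and 1418 in amp1-13, and its log2 fold change of 0.96 (adjusted p = 0.013 from limma) fell just short of 2-fold.

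The genes that supply the reduction steps were called as well. G6PD3, a plastid glucose-6-phosphate dehydrogenase, had 431, 519 and 784 in cyp78a5,7 and 83.9, 68.6 and 68.6 in amp1-13, a log2 fold change of 2.72 ± 0.19 (adjusted p = 0.00075 from limma). The root-type ferredoxin reductases RFNR1 and RFNR2 had log2 fold changes of 1.77 and 2.04, and UPM1, an enzyme of siroheme synthesis, had 1.95. All 4 were without overlap. NRT2.1 had 78.4, 140 and 240.1 in cyp78a5,7 and 28.5, 29.7 and 20.5 in amp1-13, and NRT3.1 had 345, 504 and 993 in cyp78a5,7 and 104, 123 and 99.55 in amp1-13, with log2 fold changes of 1.92 and 2.23. Of the 3 LBD repressors of nitrogen responses, LBD39 was called at 1.17, and LBD37 and LBD38, at 0.89 and 0.38, did not pass. BT2, a regulator of nitrogen use, had 348, 371 and 329.6 in cyp78a5,7, 395, 287 and 253 in amp1-13 and 92.7, 31.1 and 66.1 in wild type, so that both mutants lay above wild type and the log2 fold change between them was 0.16. Only AT3G25790 of this list was named by the platform, at signals under 9 on all 6 mutant arrays, and it was not called.

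Cold and dehydration genes encode dehydrins and other protective proteins together with their regulators. In this list 6 of 10 named members were called higher in cyp78a5,7 and 0 lower, with a median of 1.49, and 3 of the 4 platform-named members were among them. The shares called higher were 1.83% of all platform-named probe sets and 23.3% of those named only from the study's list. RD29A, a widely used marker of dehydration and cold, had 664, 1693 and 2539 in cyp78a5,7 and 85.6, 64.7 and 65.1 in amp1-13, a log2 fold change of 4.15 ± 0.45 (adjusted p = 0.0017 from limma). The dehydrin gene XERO2 had 870.1, 2385 and 3120 in cyp78a5,7 and 358, 182 and 156 in amp1-13, a log2 fold change of 3.12 ± 0.51. The dehydrins ERD10 and COR47 had log2 fold changes of 1.58 and 1.22, and RD26, a NAC transcription factor, had 1.66. In all 5 genes the groups did not overlap. COR15B, a chloroplast protein of cold acclimation, had 66.95, 55.05 and 106.5 in cyp78a5,7, 16.3, 19 and 22.1 in amp1-13 and 98.5, 62.15 and 65.1 in wild type, so its difference lay mainly in low values of amp1-13. CBF3, a factor upstream of the cold genes, had 15.4, 8.95 and 9.51 in cyp78a5,7 and 16.25, 16.2 and 16.8 in amp1-13, and its log2 fold change of -0.21 did not pass. COR15A, at 1.69, did not pass either (adjusted p = 0.07 from limma).

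Abscisic acid, the hormone of the dehydration response, was represented by 4 named genes, none of them named by the platform. CYP707A1, an abscisic acid hydroxylase, had 284, 253 and 350.2 in cyp78a5,7 and 87.8, 94.8 and 109.5 in amp1-13, a log2 fold change of 1.48 ± 0.18, and AFP1, which binds the factor ABI5, rose by 1.22. MARD1, a zinc-finger gene of seed dormancy, was lower, with 32.1, 28.4 and 23.5 in cyp78a5,7 and 124, 109 and 112 in amp1-13 and a log2 fold change of -1.54 ± 0.16. The related hydroxylase gene CYP707A3 had 852.5, 561 and 289 in cyp78a5,7 and 842, 376 and 469 in amp1-13, which overlapped widely, and its change of -0.06 did not pass.

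Tryptophan and indole glucosinolate genes make defence compounds from chorismate through anthranilate and the CYP79B enzymes. In the list 5 of 11 named members were called higher in cyp78a5,7, 0 lower, and the median log2 fold change was 0.98. Called higher were 2.15% of all probe sets and 23.3% of those named only from the study's list. ASA1, the anthranilate synthase subunit at the entry to the pathway, had 550.1, 679.7 and 706.5 in cyp78a5,7 and 223, 259 and 271.5 in amp1-13, a log2 fold change of 1.29 ± 0.17 (adjusted p = 0.003 from limma). CYP79B2 had 387, 409 and 668 in cyp78a5,7 and 179.9, 173 and 152 in amp1-13, a log2 fold change of 1.41 ± 0.21, and neither gene overlapped between the genotypes. UGT74B1, a glucosyltransferase of the core pathway and the only called member named by the platform, had 1.11. CYP83B1 and CYP79B3 stood at 1.17 and 1.12. Without amp1-13 replicate 2 their adjusted p were 0.0566 and 0.0649 from limma and 3 members stayed called, and CYP79B3 also lost its call without amp1-13 replicate 1 (0.0659), without amp1-13 replicate 3 (0.0817) and without cyp78a5,7 replicate 3, where its log2 fold change was 0.79. PAT1, TSA1, SUR1, SOT16 and AT2G04400 had log2 fold changes from 0.74 to 0.98, all under 2-fold. The monooxygenase gene CYP81F2 had the opposite sign at -0.48 and did not pass.

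Salicylic acid genes were higher in cyp78a5,7 for 4 of 9 named members, lower for 0, with a median of 0.82, and all 9 were named through the study's list. Of probe sets named only from that list 23.3% were called higher, and of all probe sets 2.15%. ICS1, the isochorismate synthase that makes the precursor, had 157, 125 and 120.5 in cyp78a5,7 and 56.2, 61.5 and 59.7 in amp1-13, a log2 fold change of 1.03 ± 0.13, and EDS5, its chloroplast exporter, had 176, 240.3 and 239.5 in cyp78a5,7 and 85.3, 65.1 and 81.25 in amp1-13, a log2 fold change of 1.36 ± 0.14 (adjusted p = 0.0016 from limma). Both separated cleanly. Without cyp78a5,7 replicate 1 ICS1 had a log2 fold change of 0.93, under 2-fold. PR2, a glucanase, and the factor WRKY38 were called at 1.40 and 1.64, and WRKY38 lost its call without amp1-13 replicate 2 (adjusted p = 0.0951 from limma) or replicate 3 (0.0784). The defence marker PR1 had 86.3, 151 and 114.5 in cyp78a5,7 and 36.15, 67.7 and 84.1 in amp1-13 and PR5 had 128, 56.4 and 97.1 in cyp78a5,7 and 147, 161 and 167 in amp1-13, and their log2 fold changes of 0.82 and -0.70 did not pass.

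The tau class glutathione transferases, which attach glutathione to electrophiles, were added as a list after their values had been seen. Of 16 named members 5 were called higher and 0 lower, around a median of 0.12. The share called higher was 1.83% over platform-named probe sets and 23.3% over those named only from the study's list. GSTU6 had 261, 704 and 1214 in cyp78a5,7 and 76.6, 52.5 and 43 in amp1-13, GSTU5 had 575, 1137 and 1454 in cyp78a5,7 and 148, 101 and 104 in amp1-13, and GSTU4 had 43.8, 121.5 and 289.5 in cyp78a5,7 and 7.16, 10.8 and 9.14 in amp1-13. Their log2 fold changes were 3.15, 2.96 and 2.46, and in each gene cyp78a5,7 replicate 3 was the highest array. All amp1-13 signals of GSTU4 were under 16, so the size of its change depends on the offset. GSTU22 and GSTU11 were called at 1.94 and 1.16, and the other 11 members had changes from -0.72 for GSTU18 to 1.32 for GSTU26 that did not pass. Of the 5, GSTU22 was the one named by the platform. The count of called members was 3 without cyp78a5,7 replicate 2 and also 3 when any 1 of the amp1-13 arrays was left out, and it was 2 with an offset of 64.

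**Figure D3:**
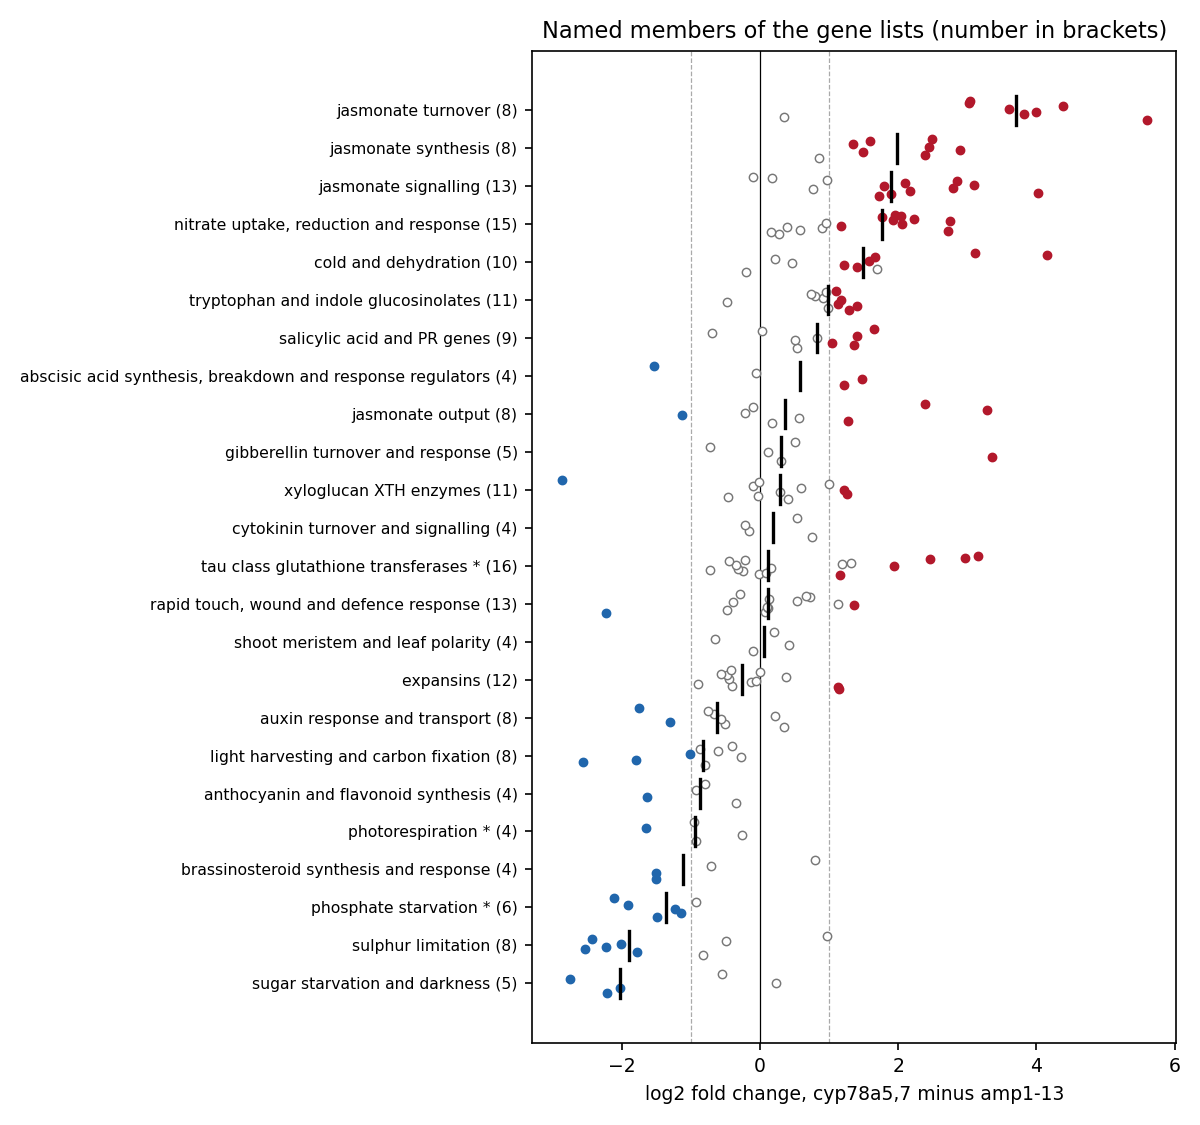
Each point is 1 named gene, placed at its log2 fold change, cyp78a5,7 minus amp1-13, in the row of its gene list, with the number of named members in brackets and the list median as a black bar. Filled points passed the test at 2-fold (dashed lines), red for higher and blue for lower, and lists marked with an asterisk were added after their values had been seen. The jasmonate turnover list has the highest median, 3.71, and the sugar starvation and darkness list the lowest, -2.02.

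Among the gene lists, those of sugar starvation, sulphur limitation and phosphate starvation had the lowest medians. The counts called lower in this and the following lists stand beside 1.76% of all probe sets called lower. Among probe sets named only from the study's list the share was 7.8%. Genes of sugar starvation and darkness rise when carbohydrate runs short, and 3 of 5 named members were called lower in cyp78a5,7, 0 higher, with a median log2 fold change of -2.02. RZPF34, a RING zinc-finger protein, had 133, 136 and 102.5 in cyp78a5,7, 1012, 871 and 778 in amp1-13 and 567, 261 and 355 in wild type, with a log2 fold change between the mutants of -2.75 ± 0.24 (adjusted p = 0.0012 from limma). AT3G15450 had 218, 204.5 and 306 in cyp78a5,7, 1234, 1306 and 889 in amp1-13 and 216, 169 and 114.5 in wild type, and BAM5, a beta-amylase, had 50.5, 28.7 and 38.85 in cyp78a5,7, 190.5, 361 and 128 in amp1-13 and 27.2, 25.85 and 24.2 in wild type. For these 2 genes the cyp78a5,7 arrays lay near wild type and the amp1-13 arrays stood above both. Their log2 fold changes between the mutants were -2.22 and -2.02. TPS11 and BCAT2, at -0.55 and 0.23, did not pass.

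In the list of light harvesting and carbon fixation all 8 named members had lower signals in cyp78a5,7, with a median log2 fold change of -0.83, and 3 of them were called. CP12-2, a small scaffold of Calvin-Benson cycle enzymes, had 181, 152 and 81.2 in cyp78a5,7 and 837, 833 and 841 in amp1-13, a log2 fold change of -2.56 ± 0.26 (adjusted p = 0.0015 from limma). LHCB2.3, a light-harvesting antenna protein, had 181, 102 and 68.75 in cyp78a5,7, 542, 354 and 381 in amp1-13 and 66.8, 37.4 and 34.1 in wild type. The arrays of both mutants lay above wild type and amp1-13 furthest, but cyp78a5,7 did not pass against wild type (log2 fold change 1.02, adjusted p = 0.055 from limma). CA1, a carbonic anhydrase, had 1284, 1164 and 1102 in cyp78a5,7, 2260, 2023 and 1842 in amp1-13 and 400.5, 443.5 and 287 in wild type, the same order, and its change between the mutants of -0.79 (adjusted p = 0.019 from limma) stayed under 2-fold. PSBY, a small protein of photosystem II, RCA, the Rubisco activase, and LHCB4.1 had log2 fold changes of -0.87, -0.41 and -0.28. LHCB4.2 was called at -1.01 but not in 12 of 19 alternative fits, among them those without wild type replicate 1 or 3, without cyp78a5,7 replicate 2 or 3 and without each amp1-13 array, where its log2 fold change lay between -1.03 and -0.76.

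FBA5, a fructose-bisphosphate aldolase, had 8.38, 14.6 and 10.1 in cyp78a5,7, 153.5, 144 and 132 in amp1-13 and 20.2, 11.3 and 20.4 in wild type, with a log2 fold change between the mutants of -2.52 ± 0.16 (adjusted p = 0.00046 from limma) that depends on the offset. Lists of the Calvin-Benson cycle and of photorespiration were added after their values had been seen, and in these 1 of 2 and 1 of 4 named members were called lower. PRK, the phosphoribulokinase, had 818, 676 and 584 in cyp78a5,7, 1826, 1750 and 1648 in amp1-13 and 568, 744 and 569.9 in wild type. HPR, the hydroxypyruvate reductase of photorespiration, had 408, 355 and 329 in cyp78a5,7, 1203, 1225 and 939 in amp1-13 and 668, 504.5 and 501 in wild type. Both were highest in amp1-13 without overlap, and their log2 fold changes between the mutants were -1.36 and -1.65. SBPASE, LrgB and AT1G11860 had changes from -0.95 to -0.92, under 2-fold, and AT1G80380 had -0.26. Without cyp78a5,7 replicate 1 the counts of called members were 2 in the Calvin-Benson list and 3 in the photorespiration list, and without amp1-13 replicate 3 the Calvin-Benson count was 2. DFR, an enzyme of anthocyanin synthesis, had 37.3, 33.6 and 28.3 in cyp78a5,7, 125, 168 and 129 in amp1-13 and 30.2, 15.3 and 11.2 in wild type, and it was the only called member of 4 named flavonoid genes, at -1.63 ± 0.22.

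Some genes outside the lists were near wild type in cyp78a5,7 and high in amp1-13. NEET, an iron-sulphur protein, had 72.05, 71.9 and 58.2 in cyp78a5,7, 430, 344 and 444 in amp1-13 and 88.1, 29.6 and 64.15 in wild type, with a log2 fold change between the mutants of -2.35 ± 0.30. SEP3, a MADS-box factor known from floral organs, had 54.9, 25 and 16.4 in cyp78a5,7, 176, 193 and 208 in amp1-13 and 38.85, 32.4 and 36.65 in wild type, a log2 fold change of -2.17 ± 0.24. AT2G20670 had 42, 28.1 and 23.9 in cyp78a5,7, 327, 198 and 153 in amp1-13 and 39.95, 33.5 and 34 in wild type. In each of these the 3 amp1-13 arrays lay above all 6 others. AT3G62550 had 230, 161 and 33.8 in cyp78a5,7, 612, 1060 and 873 in amp1-13 and 1650, 714 and 920 in wild type, so that cyp78a5,7 was the genotype that stood apart, and it lost its call without amp1-13 replicate 2 (adjusted p = 0.0626 from limma) or replicate 3 (0.0514).

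Sulphur limitation genes were lower in cyp78a5,7. SDI1, LSU1 and LSU2 are induced when sulphate runs short, and BGLU28 is a glucosidase that releases sulphur from glucosinolates. Of 8 named members 5 were called lower, 0 higher, and the median log2 fold change was -1.90. SDI1 had 206, 108 and 63.9 in cyp78a5,7, 557, 664 and 827 in amp1-13 and 1542, 1314 and 1592 in wild type, a log2 fold change between the mutants of -2.44 ± 0.31 (adjusted p = 0.0029 from limma). LSU2 had 133, 54.3 and 50.9 in cyp78a5,7, 300, 397 and 334 in amp1-13 and 923, 652 and 1089 in wild type, and LSU1 had 314, 118 and 69.6 in cyp78a5,7, 607, 732 and 758 in amp1-13 and 1710, 1185 and 2115 in wild type. In these 3 genes the order was wild type, amp1-13 and then cyp78a5,7 from high to low, with no overlap between the mutants. BGLU28 had 527, 152 and 63 in cyp78a5,7, 988, 1025 and 1234 in amp1-13 and 446, 432 and 555 in wild type instead, with amp1-13 highest. AT1G04770 was called at -1.78, and it and BGLU28 were the members named by the platform.

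The sulphur list varied among its members and its arrays. APR2, an enzyme of sulphate reduction, had a log2 fold change of -0.83 under 2-fold, and the sulphate transporter SULTR1;2 had the opposite sign, with 348.5, 622.5 and 1643 in cyp78a5,7 and 409, 330.5 and 327 in amp1-13, where replicate 3 of cyp78a5,7 was the highest and replicate 1 lay among the amp1-13 arrays. Without cyp78a5,7 replicate 1 SULTR1;2 passed the test as 1 member called higher. Without amp1-13 replicate 2 the count called lower was 3, because LSU1 (adjusted p = 0.0518 from limma) and BGLU28 (0.0787) no longer passed. BGLU28 also lost its call without cyp78a5,7 replicate 2 (0.0808), amp1-13 replicate 1 (0.059) or amp1-13 replicate 3 (0.0802).

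Phosphate starvation genes were added as a list after their values had been seen, and all 6 named members came from the study's list. SPX1, a phosphate sensor, had 1408, 668 and 291 in cyp78a5,7, 2234, 2793 and 2450 in amp1-13 and 3838, 3109 and 4163 in wild type. SRG3, a glycerophosphodiester phosphodiesterase, had 477, 211.5 and 95.3 in cyp78a5,7, 1058, 915 and 908.5 in amp1-13 and 880.5, 1104 and 1036 in wild type. Both were far lower in cyp78a5,7 than in amp1-13 without overlap, with log2 fold changes of -1.92 ± 0.47 and -2.11 ± 0.44, and replicate 1 of cyp78a5,7 was the nearest to amp1-13. G3Pp1, a glycerol-3-phosphate permease, and the kinases PPCK1 and PPCK2 were called at -1.50, -1.14 and -1.23, and SPX2 had -0.93 under 2-fold. The count of 5 was not stable. It was 1 with the 6 mutant arrays alone, 2 with no offset and 3 with an offset of 64. It was 0 with amp1-13 replicate 2 left out, and 2 with cyp78a5,7 replicate 2, amp1-13 replicate 1 or amp1-13 replicate 3 left out.

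Genes of growth hormones and cell walls held the largest fall. XTH6 belongs to the enzymes that cut and rejoin xyloglucan in cell walls, and it had 29.5, 49.7 and 29 in cyp78a5,7, 443, 296 and 355 in amp1-13 and 130.1, 64.6 and 131 in wild type, with cyp78a5,7 under and amp1-13 over all wild type arrays and a log2 fold change between the mutants of -2.87 ± 0.29 (adjusted p = 0.0016 from limma). Of 11 named XTH members XTH6 was called lower and XTH18 and XTH20 higher, around a median of 0.29. The calls of XTH18 and XTH20, at 1.26 and 1.22, were both lost without cyp78a5,7 replicate 2 (adjusted p = 0.0739 and 0.0595 from limma), amp1-13 replicate 2 (0.1 and 0.0813) or amp1-13 replicate 3 (0.0931 and 0.072), and that of XTH20 also without cyp78a5,7 replicate 3, at a log2 fold change of 0.92. TCH4, a touch-induced member, and XTH24 had log2 fold changes between the mutants of 0.40 and -0.10 that did not pass. Of 12 expansins, wall-loosening proteins, the expansin-like EXLA1 and EXLA2 were called higher at 1.14 and 1.13 around a list median of -0.27, and EXPA1, EXPA4 and EXPA8 had changes from -0.90 to -0.48 that were not called. The calls of EXLA1 and EXLA2 were both lost without amp1-13 replicate 2, at log2 fold changes of 0.94 and 0.98, and EXLA1 was called in 7 of 19 alternative fits.

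Among brassinosteroid and auxin genes the called members were lower in cyp78a5,7. BEE2, a bHLH factor induced by brassinosteroid, had 48.8, 44.5 and 31.9 in cyp78a5,7 and 150.3, 153 and 148 in amp1-13, a log2 fold change of -1.51 ± 0.12. The related BEE3 had 34.5, 29.1 and 23 in cyp78a5,7 and 158, 113 and 84.2 in amp1-13, a log2 fold change of -1.51 ± 0.24. Neither overlapped between the mutants, and they were the 2 called of 4 named members. BR6OX2, the enzyme of the last step of brassinolide synthesis, had -0.72 under 2-fold, and EXO, a growth gene induced by brassinosteroid, had 0.79 with the opposite sign. HBI1, a growth-promoting bHLH factor, had 35.5, 37 and 54.8 in cyp78a5,7, 177, 217 and 201 in amp1-13 and 108, 90.8 and 86.2 in wild type, a log2 fold change between the mutants of -1.87 ± 0.16 (adjusted p = 0.0012 from limma). Among 8 auxin genes SAUR16 and HAT2 were called lower at -1.75 and -1.30, and 0 were called higher. HAT2, an auxin-induced homeodomain factor, had 67.7, 50.9 and 52.3 in cyp78a5,7 and 133, 168.5 and 202 in amp1-13, and SAUR16 had 10.5, 6.38 and 13 in cyp78a5,7 and 47.4, 74 and 116 in amp1-13, which did not overlap. IAA1, IAA4 and PIN4 had changes from -0.75 to -0.57 and were not called, and GH3.3 and IAA29 had the opposite sign at 0.35 and 0.21. All cyp78a5,7 signals of SAUR16 were under the offset of 16, and its log2 fold change ran from -2.87 to -0.89 across the alternative fits. With an offset of 64 the auxin list had 0 called and the brassinosteroid list 1.

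The genes of the rapid touch, wound and defence response were mostly above wild type in both mutants, with a median difference between the mutants near 0. Of 13 named members WRKY11 was called higher, at 1.36 ± 0.21, and ERF104 lower, and the median was 0.11, although 12 of the 13 were called for cyp78a5,7, of which only ERF104 was lower, and 9 were called higher for amp1-13 against the shared wild type arrays. Of all probe sets 4.37% were called higher and 2.64% lower in cyp78a5,7 against wild type, 7.02% in all, and 1.8% higher and 0.796% lower in amp1-13, 2.6% in all. ERF104, an ethylene response factor, had 135, 65.25 and 72 in cyp78a5,7, 539, 401 and 446 in amp1-13 and 275, 189 and 176 in wild type, a log2 fold change between the mutants of -2.23 ± 0.24 (adjusted p = 0.0017 from limma). WRKY33, a factor of pathogen defence, had 992, 515 and 339.9 in cyp78a5,7, 1056, 623 and 564 in amp1-13 and 123, 123 and 89.8 in wild type, and SZF1, a zinc-finger protein of salt stress, had 1894, 1069 and 407 in cyp78a5,7, 1374, 698 and 645 in amp1-13 and 265, 145 and 126 in wild type. Both overlapped between the mutants and varied widely within cyp78a5,7, and their changes of -0.39 ± 0.38 and 0.11 ± 0.56 did not pass. TCH3, a calmodulin-like protein, had 2687, 2708 and 2264 in cyp78a5,7, 2631, 2479 and 2454 in amp1-13 and 1754, 962 and 1194 in wild type, and the oxidase gene RBOHD had 1010, 801 and 574.5 in cyp78a5,7, 837, 1119 and 1283 in amp1-13 and 257.5, 368 and 258.5 in wild type. Values with a wide error of this kind do not show that the mutants were alike. Without cyp78a5,7 replicate 3 a further member passed, giving 2 called higher. The count was also 2 with the values as deposited, with 75th percentile centring and without the dimmest 30% of probe sets. It was 2 as well with a replicate block, a variance trend or robust variances.

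Genes related to the mutated ones and regulators of the shoot meristem and leaf polarity gave 0 calls. CYP78A6, a P450 gene of the same family, had 11.25, 8.635 and 2.25 in cyp78a5,7 and 18, 32 and 20.2 in amp1-13. CYP78A9, another member, had 1.02, 7.9 and 7.97 in cyp78a5,7 and 24.1, 22 and 19.8 in amp1-13. Both were close to or under the offset of 16. They were lower in cyp78a5,7 on all arrays, at log2 fold changes of -0.71 and -0.76 (adjusted p = 0.033 and 0.021 from limma). These sizes depend on the offset, and with no offset they were -1.77 and -2.32, which did not pass (adjusted p = 0.0876 and 0.128 from limma). PHV, a leaf polarity factor, had 61.2, 58.7 and 57.3 in cyp78a5,7, 97.9, 104 and 113 in amp1-13 and 59.2, 87.2 and 75.75 in wild type and a log2 fold change of -0.65 ± 0.09 (adjusted p = 0.0045 from limma), also under 2-fold. CLV3, the peptide of the shoot meristem, had signals of 5.17, 2.15 and 0.441 in cyp78a5,7 and 1.39, 10.1 and 1.965 in amp1-13, too dim to compare, and LAS, a meristem regulator, had 0.42. RAP2.6L, an ERF factor related to RAP2.6, had 58.3, 105 and 137 in cyp78a5,7, 83.6, 84.8 and 78.35 in amp1-13 and 30.7, 24.9 and 26.9 in wild type. RAP2.6L thus overlapped between the mutants at 0.20 ± 0.24, where RAP2.6 had a difference of 4.71. Of 4 cytokinin genes 0 were called, and CKX4, a cytokinin oxidase, had a log2 fold change of 0.53. Lists with few named members, for the circadian clock, iron, heat shock and aliphatic glucosinolates, also had 0 called.

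The root hair markers and the reference genes gave no calls. The root hair genes EXPA7, EXPA18 and PRP1 had log2 fold changes from -0.71 to 0.05, and their signals varied more than 4-fold within cyp78a5,7, with 21.2, 49.7 and 89.15 for EXPA7. GAPC2, a glycolytic enzyme used as a reference gene, had 3165, 3133 and 2919 in cyp78a5,7 and 3090, 3137 and 3043 in amp1-13, and the 3 reference genes had log2 fold changes from 0.09 to 0.14. Of the light harvesting and carbon fixation list members given above, RCA, at -0.41, CA1, PSBY and LHCB4.1 were not called. CP12-2, LHCB2.3 and LHCB4.2 were called lower, and LHCB4.2 lost its call in 12 of 19 alternative fits. The part of a different share of organs in any of the results was not tested.

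The position of wild type differed between the directions. As a description, with wild type arrays that both mutant contrasts share, 382 of the 490 probe sets called higher in cyp78a5,7 were called against wild type in cyp78a5,7 alone, 37 in both mutants in the same direction, 6 in amp1-13 alone and 65 in neither. Of the 401 called lower, 137 were called against wild type in cyp78a5,7 alone, 100 in amp1-13 alone, 7 in both in the same direction, 4 in both in opposite directions and 153 in neither. The wild type mean lay between the mutant means for 158 of those called higher and 271 of those called lower. It lay outside, nearer to amp1-13, for 331 of those called higher and 87 of those called lower. It was outside and nearer to cyp78a5,7 for 1 and 43. These positions and classes were not counted over all probe sets, so they are not set against a background. Of all probe sets 7.02% were called against wild type in cyp78a5,7 and 2.6% in amp1-13. In the 382 the median log2 fold change was 1.76 for cyp78a5,7 and 0.23 for amp1-13 against wild type, and in the 100 it was -0.03 and 1.32. The classes moved with the arrays in the fit. The 382 became 245 without amp1-13 replicate 2, and the 6 became 13 without cyp78a5,7 replicate 1 and 10 without wild type replicate 2. The 137 became 234 without cyp78a5,7 replicate 1, 74 without cyp78a5,7 replicate 3, and 81 or 86 with replicate 2 or replicate 3 of amp1-13 left out.

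**Figure D4:**
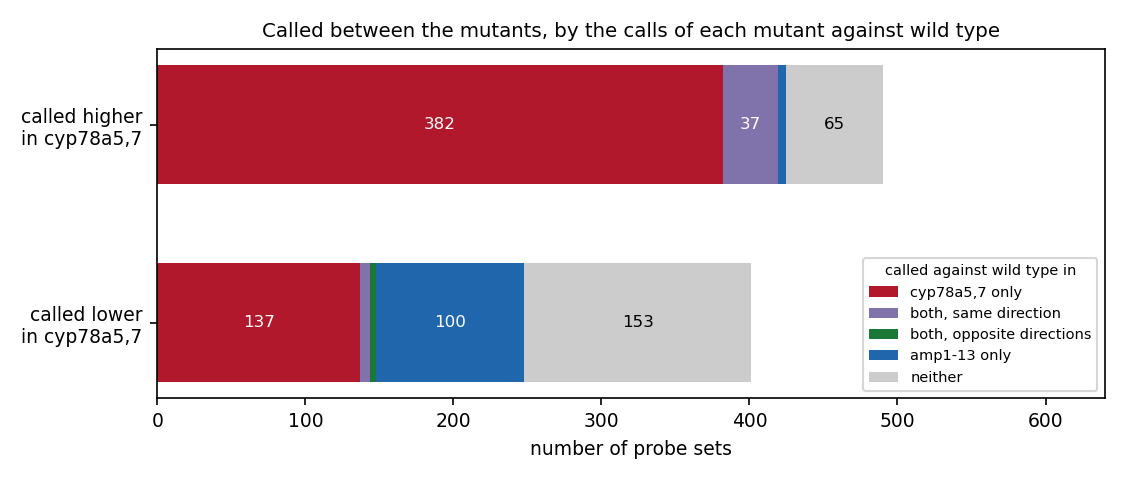
The bars count the probe sets called between the mutants, 490 higher in cyp78a5,7 above and 401 lower below, split by which mutant was itself called against wild type. The class of cyp78a5,7 alone makes up 382 of the upper bar and 137 of the lower, and the class of amp1-13 alone 6 and 100.

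Named genes showed each of these positions. PP2-A5, a phloem lectin-like protein called in both mutants, had 1090, 1224 and 1827 in cyp78a5,7, 255, 115 and 155 in amp1-13 and 81.9, 49.98 and 48 in wild type, with a log2 fold change between the mutants of 2.97 ± 0.31. ICL, the isocitrate lyase of the glyoxylate cycle, had 348, 748 and 319 in cyp78a5,7, 114, 129 and 114 in amp1-13 and 498, 365 and 387 in wild type, so that cyp78a5,7 overlapped wild type and amp1-13 lay under both, with 1.75 ± 0.27 between the mutants. AT1G29090 had 62, 189 and 149 in cyp78a5,7, 19.5, 21.5 and 22.7 in amp1-13 and 128, 92.3 and 128 in wild type, the same order. RGF9, a root growth peptide, had 67.9, 58.6 and 32.05 in cyp78a5,7, 106, 114 and 222 in amp1-13 and 496, 401 and 615 in wild type, lower in both mutants and lowest in cyp78a5,7. Its call between the mutants at -1.19 was lost in 9 of the 18 alternative fits that tested it. Of these 9, 5 were without 1 array (wild type replicate 1, cyp78a5,7 replicate 2 or 3, amp1-13 replicate 2 or 3), with adjusted p of 0.0507 to 0.0921 from limma. CB5-C, a cytochrome b5, had 621, 589.5 and 782 in cyp78a5,7, 224, 235 and 251 in amp1-13 and 321, 277 and 364 in wild type, called between the mutants at 1.41 ± 0.13 and in neither against wild type, where cyp78a5,7 fell just short of 2-fold at 0.99.

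The replicates of cyp78a5,7 were spread more than those of amp1-13 in several lists, and replicate 3 of cyp78a5,7 was the farthest from amp1-13 in the jasmonate turnover, nitrate, cold and phosphate lists. Expressed as the mean log2 level of a list relative to the 9 arrays, jasmonate turnover was 1.55, 2.58 and 3.12 on the cyp78a5,7 arrays and -0.80, -1.18 and -1.21 on the amp1-13 arrays. Nitrate genes were 0.85, 1.12 and 1.59 in cyp78a5,7 and -0.15, -0.26 and -0.40 in amp1-13, and phosphate starvation genes were -0.40, -1.02 and -1.80 in cyp78a5,7 and 0.36, 0.49 and 0.34 in amp1-13. Rapid touch and wound genes were 0.97, 0.64 and 0.19 in cyp78a5,7, with replicate 3 the lowest, and 0.89, 0.25 and 0.33 in amp1-13, with replicate 1 the highest. Jasmonate signalling was also highest on replicate 1 of amp1-13, with 0.26, -0.53 and -0.58, against 1.61, 1.85 and 1.28 in cyp78a5,7. In these jasmonate, nitrate and phosphate lists the mutants did not overlap on any array, and in the touch and wound list they did. Sugar starvation genes stood at -0.48, -0.60 and -0.46 in cyp78a5,7 and 0.94, 1.22 and 0.68 in amp1-13. What set the arrays of a genotype apart was not tested.

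**Figure D5:**
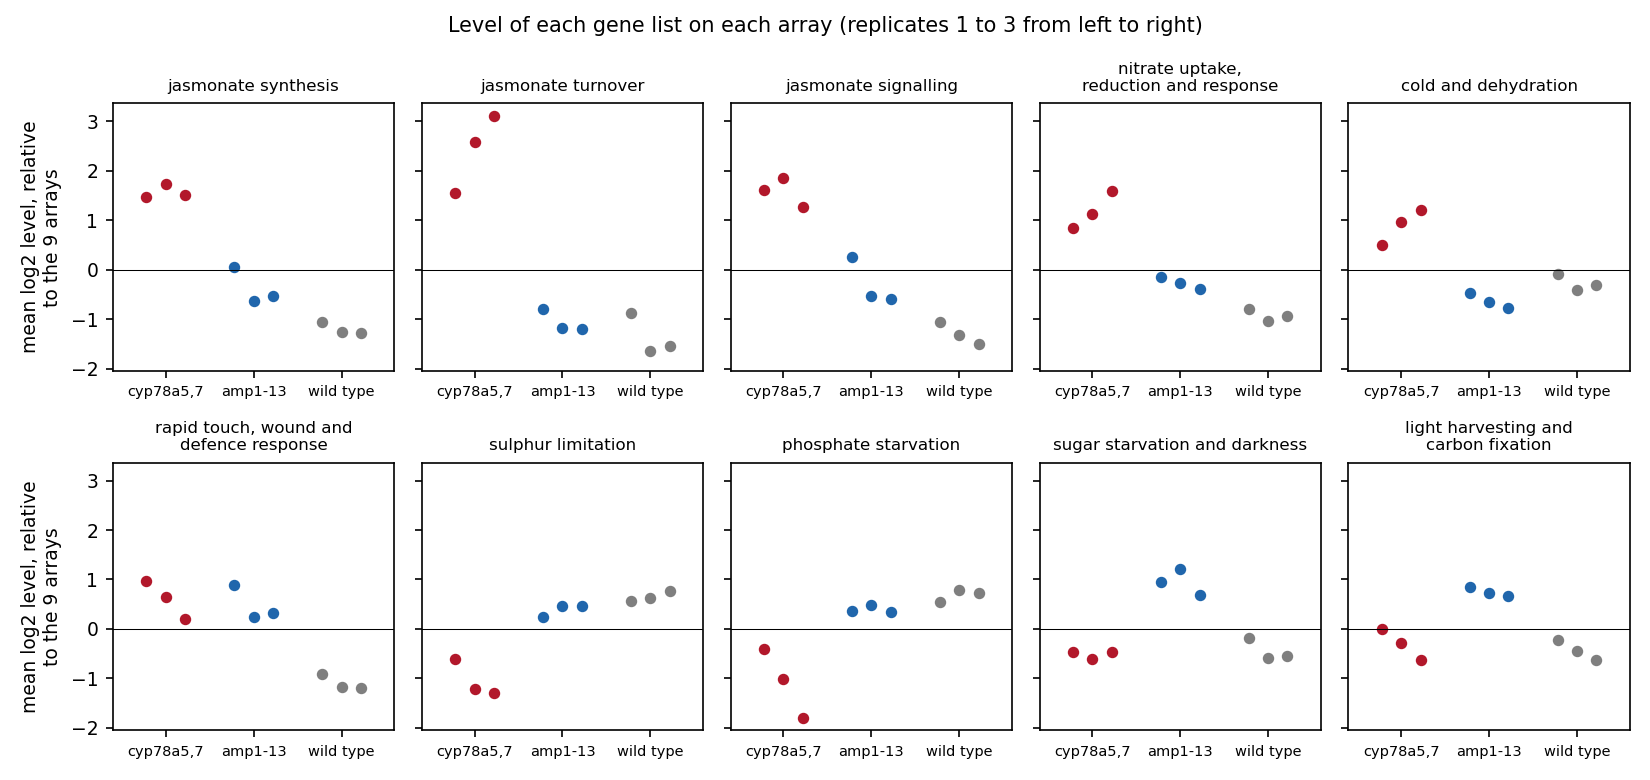
The mean over the named members of a gene list of the normalized log2 value, relative to each member's mean over the 9 arrays, is plotted for each array, with replicates 1 to 3 from left to right. The 3 cyp78a5,7 arrays lie above all amp1-13 arrays in the jasmonate, nitrate and cold lists, below all of them in the sulphur, phosphate, sugar starvation and light harvesting lists, and overlap them for the rapid touch genes.

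Genes at the edge of the 2-fold threshold show how little separates a call from none. AT1G24440 and AT2G30930 lay just inside, lower and higher in cyp78a5,7, and RLP22 and AT5G15640 lay just outside, with adjusted p = 0.02 and 0.0017 from limma. In the 19 alternative fits AT1G24440 lost its call in 8 and AT2G30930 in 15, among them those without cyp78a5,7 replicate 2, amp1-13 replicate 2, amp1-13 replicate 3, wild type replicate 1 or wild type replicate 3 for both genes. For probe sets of the same gene, 149 named genes had several, of which 7 had at least 1 called. In 5 of the 7 another probe set of the gene was not called, and 0 had calls in opposite directions.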

How the data were processed

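Total RNA of whole seedlings was hybridized to 9 Affymetrix ATH1 arrays, 3 for each genotype. The deposited table holds signal intensities made by the authors with MAS5 (version not given in the sources used here) and not logged. On every array the mean signal came to 100.0 once 2% of the probe sets had been trimmed at each end. The authors' own values came from RMA on the raw arrays, which cannot be repeated from summarized signals and was not used here. An offset of 16 was added, log2 values were quantile normalized over the 9 arrays, and limma 3.58.1 in R 4.3.3 fitted a mean per genotype (6 residual and 2.69 prior degrees of freedom), two-sided, with Benjamini-Hochberg adjustment over 22746 probe sets. Calls needed an adjusted p under 0.05 and 2-fold. The fit was tested on simulated data with known changes. Errors are limma's SE. The table has no detection calls, and no array batches were given. That replicates are biological is taken from the labels. Python 3.11.15 with matplotlib 3.10.9 made the figures.

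Probe sets were named from the platform annotation and RefSeq loci, or from the study's gene list, and 7868 had no name in either. AMP1 and CYP78A5 were not analysed here. A gene with several probe sets was represented by the one with the highest mean. Members and gene lists were chosen with earlier results of these data known, and 4 lists were added after their values had been seen. Named genes comprise the 15 largest changes in each direction without overlap, up to 5 called members of each list or class of wild type position, genes around the mutations and 2 on each side of the 2-fold threshold. Other members are given as values. Alternatives were the values as deposited, centring on the 75th percentile, no offset or an offset of 64, leaving out the dimmest 30%, the 6 mutant arrays alone, robust variances, a variance trend, a replicate block, fold thresholds other than 2, platform-named probe sets only and leaving out each array. Promoter motifs were not analysed here, since no sequence table was used.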

Additional observations from a re-analysis of the deposited data

Results flagged for a closer look

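In 4 genes each mutant was called against wild type in the opposite direction. The direct contrast was called in each, which adds no support, since 2 changes of at least 2-fold in opposite directions from the shared wild type add up to at least 4-fold. XTH6 had a log2 fold change of -2.87 between cyp78a5,7 and amp1-13, with -1.23 for cyp78a5,7 and 1.64 for amp1-13 against wild type. RZPF34 had -2.75 between the mutants, with -1.48 and 1.27 against wild type in the same order of genotypes. AT4G33720 had -2.44, with -1.09 and 1.34, and signals of 189.7, 301 and 242 in cyp78a5,7, 1626, 1149 and 1225 in amp1-13 and 619, 344 and 752 in wild type. ERF104 had -2.23, with -1.13 and 1.104. In all 4 the wild type lay between the mutants, amp1-13 was above it and cyp78a5,7 below it. With these calls no gene had cyp78a5,7 above and amp1-13 below wild type. The study made its own count of genes changed in opposite directions from RMA values, and the lists were not compared here. The contrasts with wild type share its 3 arrays, and groups of 3 arrays were not tested for single outlying arrays.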

How the results depend on the processing

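All 97 called named genes kept their direction in every alternative that tested them, and 60 of them kept the call in each of the 19 alternative fits that tested them. The counts called higher and lower were 256 and 155 with an offset of 64 and 233 and 186 over platform-named probe sets only. They were 478 and 497 with no offset, and 386 and 347 with the 6 mutant arrays alone. In that last fit 383 of the 490 and 343 of the 401 kept their call. Without a fold threshold the counts were 1225 and 1418, at 1.5-fold 967 and 1103, and at 4-fold 101 and 27. Leaving out 1 array gave 290 to 675 called higher and 263 to 595 called lower, lowest without amp1-13 replicate 2 and highest without cyp78a5,7 replicate 1. The list members called, 78 in all, were 17 over platform-named probe sets, 37 at 4-fold and 59 to 83 with 1 array left out. The wild type mean lay between the mutants in 48.1% of called probe sets, and in 40.2% to 51.1% with 1 array left out. The same share over all probe sets was not counted. With no offset 18 and with an offset of 64 22 of the called named genes lost the call. For arrays of the 2 mutants with the same replicate number, deviations from the genotype means correlated at r = -0.0964, -0.119 and 0.0541. With different numbers r ran from -0.174 to 0.247. With 3 arrays for each genotype these values cannot decide whether the numbers pair the arrays. A replicate block gave 457 higher and 370 lower. Of the genes not called, RAP2.6L ran from -0.024 without cyp78a5,7 replicate 3 to 0.51, CYP78A7 from -0.031 without amp1-13 replicate 1 to 0.33, and CLV3 from -0.19 to 0.057 without amp1-13 replicate 2, each with 1 array left out. Leaving out an array also leaves fewer degrees of freedom, and the cause of each lost call was not tested. The signal range limits genes under the offset, where 34.48% to 38.35% of each array lies.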

Other observations

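Genes lower in amp1-13 than in both other genotypes included AT1G16850, with 62.3, 136 and 235 in cyp78a5,7, 18.4, 8.53 and 14.9 in amp1-13 and 62.4, 57.6 and 69.5 in wild type, and AT4G30650, with 791, 1011 and 1568 in cyp78a5,7, 333, 315 and 431.5 in amp1-13 and 1338, 839 and 1185 in wild type. Their log2 fold changes between cyp78a5,7 and amp1-13 were 2.31 ± 0.37 and 1.57 ± 0.24, and both were called against wild type in amp1-13 alone. The amp1-13 mean of AT1G16850 was under 16, and its change ran from 1.34 to 3.35 across the alternatives. Genes called between the mutants but in neither against wild type included AT1G51805, with 455, 564 and 806 in cyp78a5,7, 176, 166 and 203 in amp1-13 and 232, 353 and 284.5 in wild type, and AT5G26770, with 104, 105 and 100.5 in cyp78a5,7, 34.1, 27.3 and 32.3 in amp1-13 and 43.7, 37.6 and 52 in wild type. For both, the wild type arrays lay between the mutants without overlap, and cyp78a5,7 fell just short of 2-fold against wild type, at log2 fold changes of 0.97 and 0.94. The call of AT5G26770 between the mutants was lost with an offset of 64, at 0.83.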
